A study of Homo sapiens with 6 samples.

Results

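The genes described are 10 targets of the tumour suppressor p53 that serve growth arrest and the stress response, CDKN1A, GDF15, BTG2, SESN1, SESN2, GADD45A, PLK2, PLK3, TP53INP1 and CCNG1. They were taken by symbol from the gene rows of the FPKM tables, and all 10 were found among 20026 genes. The cells are HCT116, a human colon carcinoma line, kept as 3 stable lines that over-express the TEAD4 mutant K178R (by the usual notation, lysine exchanged for arginine), over-express wild type TEAD4, or serve as control. TEAD4 is a DNA-binding transcription factor used by the Hippo pathway coactivators YAP1 and TAZ. Each line has 2 libraries, 6 in all. The labels do not say what the control line carries, which promoter drives TEAD4, or whether a line is a clone. The genotype label of wild type replicate 2 names TEAD5, and its title, which was followed, names wild type TEAD4. Nothing in the labels says that libraries of a line are separate cultures, so the p-values reflect how far these libraries differ and nothing more, and that spread may be technical.

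p53 is a transcription factor that is kept low by the ubiquitin ligase MDM2 and accumulates after DNA damage and other stress. It binds pairs of a short consensus motif near its targets, whose products halt the cell cycle, adjust metabolism, start repair or trigger death. HCT116 is a common cell model for this response. CDKN1A, which encodes the cyclin-dependent kinase inhibitor p21, is the main arrest target in these cells, and several of the 10 genes also answer to other stress or growth factor pathways.

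Sequence around the gene starts was examined because all 10 genes were lower in the K178R line than in the wild type line. RefSeq windows of 250 bases before to 50 after a start (GRCh38.p14) matched 8 of the 10 genes, with 11 windows in all. Windows were searched on both strands for the p53 response element, for 1 exact 10-base unit of it, for the TEAD motif GGAATG and for the ATF4 motif TGATGNAA. The response element was taken as a pair of 10-base units end to end, with at most 3 mismatches to the consensus. The core C and G of each unit had to match. The response element was found in 1 window of GDF15 and 1 of SESN1, and in 1.12% of all 35116 windows. An exact unit was found in 1 window of SESN1, inside its response element, and in that of PLK2, and in 6.63% of all windows. GGAATG was found in windows of GDF15, SESN1 and PLK3 and in 14.03% of all windows, and TGATGNAA in that of PLK3 and in 3.62% of all. The windows of CDKN1A, BTG2, SESN2 and CCNG1 held none of these motifs. For SESN2 the first 30 bases from the start were in no GENCODE release 29 transcript of the gene, so that start is less certain. The same held for a SESN1 window without motifs. A match is a run of letters and does not show binding, and the known p53 elements of CDKN1A lie further upstream than the window reaches. The sites are printed 5′ to 3′ on the gene's strand with 30 bases each, and capitals mark the motif.
GDF15 p53 response element, chr19:18386178-18386207, plus strand: acctgcacAGCCATGCCCGGGCAAGAACtc
SESN1 p53 response element, chr6:109009013-109009042, minus strand: cgtctGGACAAGTCTCCACAAGTCAgaaat
PLK2 exact p53 unit, chr5:58460199-58460228, minus strand: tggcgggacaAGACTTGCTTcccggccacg
PLK3 ATF4 motif and TEAD motif, chr1:44800238-44800267, plus strand: tctgggTGATGTAAggccgGGAATGggagt
GDF15 TEAD motif, chr19:18385916-18385945, plus strand: gactcccaggctGGAATGgtgtcctcatat
SESN1 TEAD motif, reverse strand, chr6:109009758-109009787, minus strand: ccctccagagccCATTCCgtacctgagaat
In GENCODE release 29 the GDF15 element spans the end of the 5′ UTR and the start of the coding sequence of the first exon. The PLK2 and PLK3 sites and the TEAD motif of GDF15 lie in the 5′ UTR of annotated transcripts that start further upstream, and the SESN1 motifs lie in no annotated exon.

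Levels are FPKM, the authors' fragment values scaled for transcript length and for the mapped total, so they can be compared between genes. Depth, estimated from the smallest values, ranged from 0.927 to 1.05 relative to control replicate 1. Read numbers behind the values are unknown. TEAD4 stood at 71.2 and 72.3 FPKM in the K178R libraries, 86.4 and 84.4 in the wild type libraries, and 16.6 and 17.5 in the control libraries. Both TEAD4 lines thus carried more TEAD4 RNA than the control line, and the K178R line less of it than the wild type line (log2 -0.25, SE 0.03, limma adjusted p = 0.0013). Of 8 colon epithelial markers 5 passed the filter on low values, with EPCAM at 152 ± 0.385 FPKM in K178R, 147 ± 0.884 in wild type and 152 ± 0.494 in control (SD, n = 2 each), while CDX1 was listed at 0 in all libraries, and VIL1 and LGALS4 reached at most 0.0293 and 0.0666 FPKM. The 8 epithelial markers summed to 2433 to 2444 FPKM in K178R, 1370 to 1407 in wild type and 2137 to 2174 in control, nearly all of it KRT8 and KRT18, which were lowest in wild type. CDX2 went the other way, with 3.21 FPKM in K178R, 4.15 in wild type and 3.29 in control. The part of these markers in the results was not tested. The 6 fibroblast markers summed to 1.73 and 1.88 FPKM in K178R, 3.64 and 3.78 in wild type, and 1.53 and 1.76 in control, nearly all of it COL1A1, with COL1A2, DCN and LUM listed at 0 throughout. The part of this in the results was not tested either. Endothelial markers summed to at most 0.131 FPKM and leukocyte markers to at most 0.0697.

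limma was fitted to 11445 genes, those that reached 0.5 FPKM in 2 or more libraries, on log2(FPKM + 1), which understates changes of low genes. Log2 differences below are on that scale, and called means a Benjamini-Hochberg adjusted p below 0.05 over all genes tested. All 10 genes passed the filter, with 0.5 FPKM or more in every library.

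Of the cell cycle brakes, CDKN1A moved most. Its levels were 30.8 and 30.6 FPKM in the K178R libraries, 149 and 152 in the wild type libraries, and 51.04 and 50.8 in the control libraries. The lines did not overlap: wild type was high, control intermediate and K178R low. In bulk RNA fewer cells that express a gene and less RNA per cell cannot be told apart. CDKN1A was lower in K178R cells than in wild type cells (ratio of mean FPKM 0.204, log2 -2.26, SE 0.03, adjusted p = 2.7e-08). It was higher in wild type than in control (ratio 2.96, log2 1.55, adjusted p = 2.1e-07) and lower in K178R than in control (ratio 0.604, log2 -0.71, adjusted p = 3.9e-06).

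BTG2, an antiproliferative adaptor of the mRNA deadenylation machinery, kept the same order. It read 10.2 and 9.73 FPKM in K178R, 22.7 and 20.99 in wild type, and 13.8 and 12.8 in control. No library of one line reached into the range of another. BTG2 was lower in K178R cells than in wild type cells (log2 -1.06, SE 0.05, adjusted p = 3.2e-05), higher in wild type than in control (log2 0.68, adjusted p = 1.1e-04) and lower in K178R than in control (log2 -0.38, adjusted p = 0.0027).

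CCNG1, which encodes the atypical cyclin G1 that binds a PP2A phosphatase and MDM2, read 45.4 and 44.7 FPKM in K178R, 67.9 and 69.2 in wild type, and 45.3 and 45.8 in control. The wild type libraries stood apart and above, while K178R and control libraries overlapped. CCNG1 was lower in K178R cells than in wild type cells (log2 -0.59, SE 0.03, adjusted p = 2.4e-05) and higher in wild type than in control (log2 0.58, adjusted p = 1.1e-05). K178R and control differed by log2 -0.02, with a 95% interval of -0.08 to 0.05.

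GADD45A, a stress sensor that binds PCNA and activates p38 signalling, read 20.8 and 23.6 FPKM in K178R, 27.4 and 26.9 in wild type, and 24.2 and 22.3 in control. Wild type libraries lay above the others, which overlapped. GADD45A was lower in K178R cells than in wild type cells (log2 -0.28, SE 0.06, adjusted p = 0.0086). It was higher in wild type than in control (log2 0.22, adjusted p = 0.022), a call that ended under median-of-ratios scaling (log2 0.11, adjusted p = 0.17), upper-quartile scaling (adjusted p = 0.08), no filter (adjusted p = 0.07) or averaged controls (adjusted p = 0.061), and on leaving out control replicate 2 (adjusted p = 0.13), wild type replicate 1 (adjusted p = 0.086) or wild type replicate 2 (adjusted p = 0.06). K178R against control gave log2 -0.07 (95% interval -0.21 to 0.08, adjusted p = 0.48).

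The polo-like kinases of the set parted. PLK2, a stress-induced kinase also known for its role in centriole duplication, read 10.03 and 10.2 FPKM in K178R, 17.3 and 16.2 in wild type, and 24.8 and 26.6 in control. It was the member that was highest in control and stepped down through wild type to K178R, with no overlap. PLK2 was lower in K178R cells than in wild type cells (log2 -0.67, SE 0.05, adjusted p = 1.2e-04), lower in wild type than in control (log2 -0.59, adjusted p = 1.2e-04) and lower in K178R than in control (ratio of mean FPKM 0.395, log2 -1.26, adjusted p = 4.8e-06).

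PLK3, a related stress kinase, read 10.1 and 10.3 FPKM in K178R, 16.05 and 17.5 in wild type, and 9.42 and 9.87 in control. Here wild type was high and the other lines lay close together, with K178R just above control. PLK3 was lower in K178R cells than in wild type cells (log2 -0.66, SE 0.05, adjusted p = 1.5e-04) and higher in wild type than in control (log2 0.74, adjusted p = 5.8e-05). K178R against control gave log2 0.08 (95% interval -0.04 to 0.19, adjusted p = 0.31). The FPKM ratio of PLK2 to PLK3 within a library was 0.990 and 0.992 in K178R, 1.08 and 0.923 in wild type, and 2.63 and 2.69 in control. Both TEAD4 lines therefore held about equal PLK2 and PLK3 RNA per length, and the control line held more PLK2. The ratio was not tested.

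**Figure D1:**
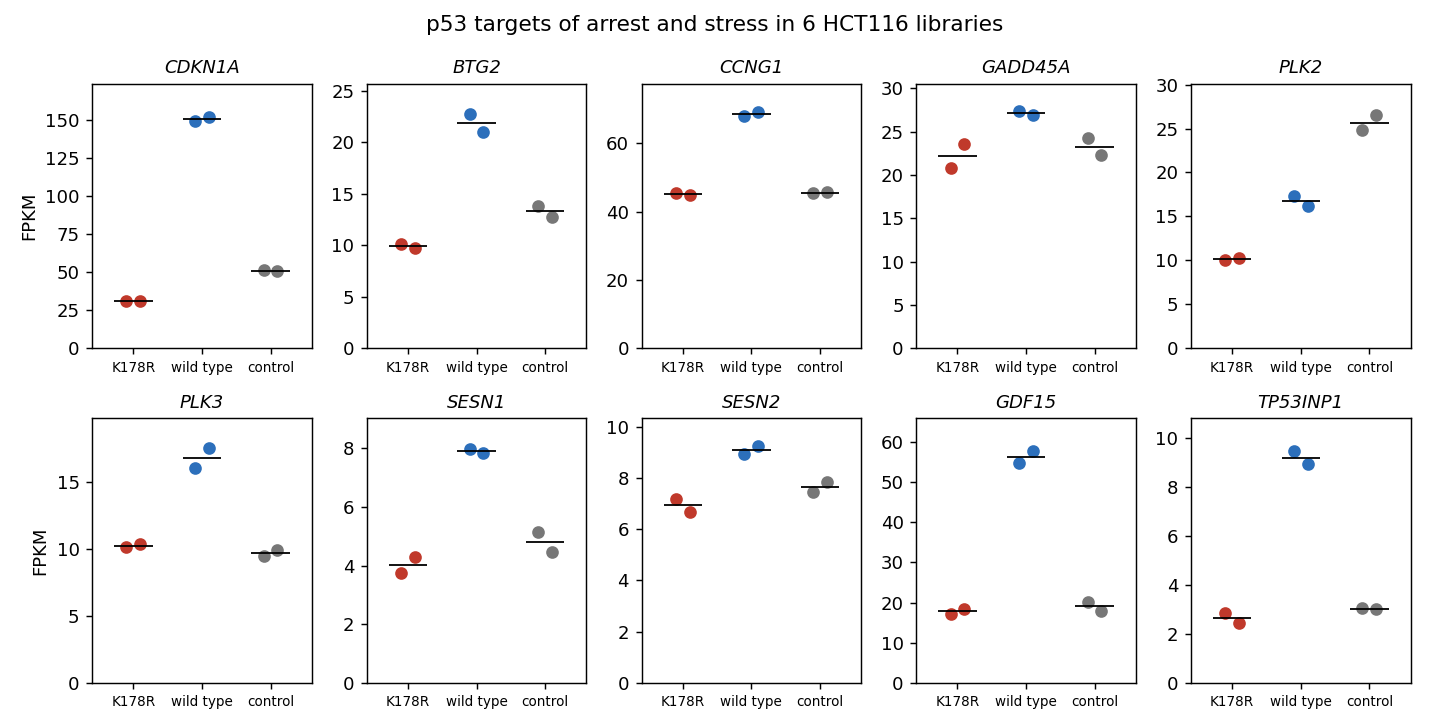
Levels of the 10 genes in each library, in FPKM (vertical axis from 0, its range set per gene), for the K178R, wild type TEAD4 and control lines. Points are the 2 libraries of a line and bars their mean; in 9 panels the wild type line is highest, and PLK2 is highest in control.

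The sestrins restrain the growth kinase mTORC1, SESN2 as a sensor of leucine. SESN1 read 3.74 and 4.29 FPKM in K178R, 7.99 and 7.85 in wild type, and 5.16 and 4.46 in control. Wild type libraries lay above the rest, and K178R libraries below both control libraries. SESN1 was lower in K178R cells than in wild type cells (log2 -0.83, SE 0.08, adjusted p = 2.8e-04) and higher in wild type than in control (log2 0.62, adjusted p = 6.1e-04). The difference between K178R and control, log2 -0.21, was not called (adjusted p = 0.086).

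SESN2 read 7.19 and 6.67 FPKM in K178R, 8.92 and 9.26 in wild type, and 7.47 and 7.86 in control. The order was the same, over a narrower range. SESN2 was lower in K178R cells than in wild type cells (log2 -0.35, SE 0.05, adjusted p = 0.0017). Its rise in wild type over control (log2 0.22, adjusted p = 0.0098) was no longer called under median-of-ratios scaling (log2 0.12, adjusted p = 0.086), without control replicate 1 (adjusted p = 0.06) or without wild type replicate 2 (adjusted p = 0.053). K178R against control was log2 -0.13 (adjusted p = 0.12). The FPKM ratio of SESN1 to SESN2 was 0.520 and 0.644 in K178R, 0.896 and 0.848 in wild type, and 0.691 and 0.568 in control.

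GDF15, a secreted cytokine of the TGF-beta family that signals through GFRAL, read 17.2 and 18.4 FPKM in K178R, 54.7 and 57.8 in wild type, and 20.2 and 17.98 in control. Wild type stood far above K178R and control, whose libraries overlapped. GDF15 was lower in K178R cells than in wild type cells (ratio of mean FPKM 0.316, log2 -1.61, SE 0.06, adjusted p = 1.2e-05) and higher in wild type than in control (ratio 2.95, log2 1.51, adjusted p = 5.2e-06). K178R against control gave log2 -0.09 (95% interval -0.23 to 0.05, adjusted p = 0.31).

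TP53INP1, which promotes autophagy and p53-dependent death, read 2.83 and 2.43 FPKM in K178R, 9.46 and 8.93 in wild type, and 3.04 and 3.003 in control. It is the lowest of the 10 in K178R and in control and is expressed above SESN1 in wild type. TP53INP1 was lower in K178R cells than in wild type cells (ratio of mean FPKM 0.286, log2 -1.49, SE 0.07, adjusted p = 2.2e-05) and higher in wild type than in control (ratio 3.04, log2 1.34, adjusted p = 1.4e-05). Both K178R libraries lay below both control libraries, but the difference was not called (log2 -0.15, 95% interval -0.30 to 0.0034, adjusted p = 0.15).

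**Figure D2:**
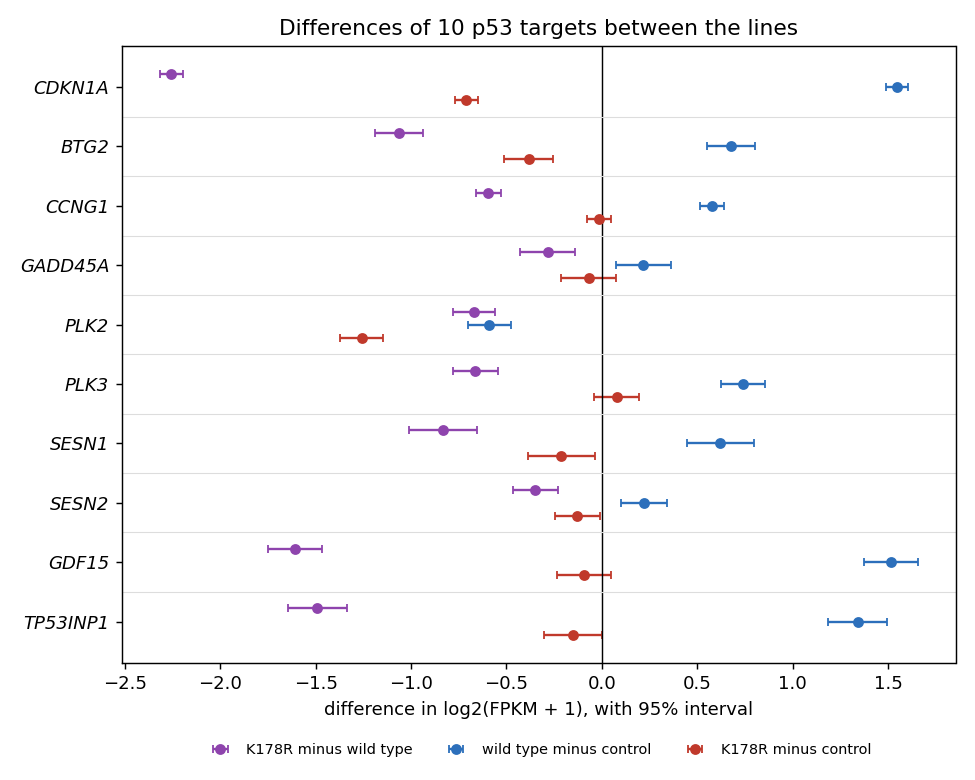
Differences in log2(FPKM + 1) of the 10 genes (rows) in 3 comparisons, with 95% intervals from limma. K178R minus wild type is below 0 for all 10, wild type minus control is above 0 for all but PLK2, and K178R minus control is close to 0 for most, with PLK2, CDKN1A and BTG2 furthest below. The comparisons share libraries.

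In order of level per length, CCNG1 (45.05 FPKM) led CDKN1A (30.7) in K178R, while CDKN1A led CCNG1 in wild type (151 and 68.5) and in control (50.9 and 45.5). PLK2 held rank 6 of 10 in K178R, rank 7 in wild type and rank 3 in control. Neighbours whose library ranges overlapped were PLK3, PLK2 and BTG2 in K178R, and PLK3 with PLK2 and TP53INP1 with SESN2 in wild type, and there were none in control. CDKN1A lay above 85.1% of tested genes in K178R, 97.6% in wild type and 91.4% in control.

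Counted together, all 10 genes were called lower in K178R cells than in wild type cells, with 0 higher. Of all tested genes, 34.5% were called lower and 10.4% higher, 44.9% in either direction. The median log2 of the 10 was -0.75, against -0.08 over all genes tested. CDKN1A, GDF15 and TP53INP1 had the 3 lowest log2 differences of the 11445 genes on this scale. With a pseudocount of 0.1, which gives low genes more room, they ranked 7, 25 and 21. Over the other alternatives they stayed within the lowest 5. BTG2 ranked 21, SESN1 69, PLK2 161, PLK3 167 and CCNG1 251 from the bottom. SESN2 and GADD45A, at 1342 and 1988, lay in the bulk of the distribution.

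Against control, wild type TEAD4 had 9 of the 10 called higher and 1, PLK2, lower, where 37.6% of all tested genes were called higher and 12.2% lower. The median log2 was 0.65, against 0.09 over all genes. CDKN1A, GDF15 and TP53INP1 ranked 12, 13 and 18 from the top, and PLK2 ranked 81 from the bottom. Under median-of-ratios scaling 7 were called higher, without SESN2 and GADD45A, and PLK2 stayed lower. With K178R against control, 3 genes (CDKN1A, BTG2 and PLK2) were called lower and 0 higher, where 11.1% of all tested genes were called lower and 11.7% higher, 22.8% in either direction. The median log2 was -0.14, against 0.0025 over all genes. PLK2 ranked 16 from the bottom, CDKN1A 73 and BTG2 254. The wild type line is in the first comparison and in the second, and the control line in the second and the third, so these counts are not independent of each other.

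**Figure D3:**
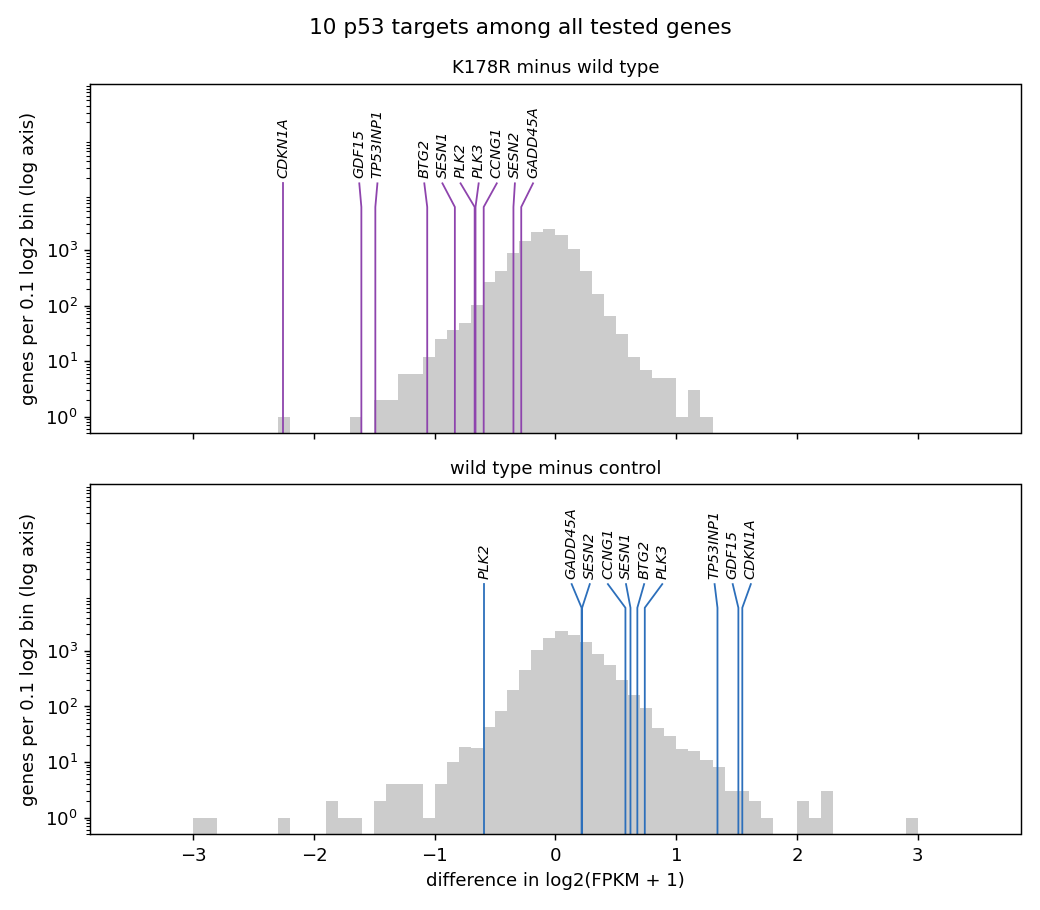
Distribution of the difference in log2(FPKM + 1) over 11445 tested genes (grey, genes per 0.1 log2 on a log axis), with the 10 genes marked by lines, for K178R minus wild type (top) and wild type minus control (bottom). CDKN1A, GDF15 and TP53INP1 are the 3 lowest genes in the top panel, and SESN2 and GADD45A lie within the bulk in both.

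Scaling moves the background of these counts. With median-of-ratios scaling the median log2 of all genes was -0.0015 in K178R against wild type and 0.0035 in wild type against control. Of all calls, 49.9% were then higher in K178R against wild type, beside 23.1% without it, and 50.9% in wild type against control, beside 75.5%. With upper-quartile scaling the shares were 41.2% and 59.6%. Annotated exons of CDKN1A share 4.79% of their bases with the antisense gene DINOL, those of SESN1 7.09% with AL390208.1, and those of PLK3 2.24% with TCTEX1D4. Whether counting used strand is not given in the sources used here, so reads of these partners cannot be told apart there.

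The regulators of p53 were read next. MDM2, both a p53 target and its ubiquitin ligase, stood at 29.8 ± 0.180 FPKM in K178R, 41.2 ± 1.07 in wild type and 28.1 ± 1.32 in control (SD, n = 2 each; log2 -0.46, adjusted p = 2.4e-04 for K178R against wild type, and log2 0.54, adjusted p = 7.8e-05 for wild type against control). The phosphatase PPM1D, which switches the response off and is a target too, was lower in K178R cells than in wild type cells (log2 -0.38) and higher in wild type than in control (log2 0.40). MDM4, the MDM2 partner that masks p53, went the other way, at 6.67 ± 0.0893 FPKM in K178R, 5.25 ± 0.137 in wild type and 6.37 ± 0.0952 in control (log2 0.30 for K178R against wild type, and -0.24 for wild type against control). Of 17 tested genes that regulate p53, 4 were called lower and 5 higher in K178R against wild type (median log2 -0.02). Of all tested genes 34.5% were called lower and 10.4% higher there. In wild type against control 4 were higher and 6 lower (median log2 -0.01), where 37.6% of all genes were higher and 12.2% lower. In K178R against control only the kinase gene HIPK2 was called (log2 -0.53, adjusted p = 3.5e-04), where 22.8% of all genes were called. The 5 higher in K178R against wild type became 2 when wild type replicate 1 or K178R replicate 1 was left out, and 3 when replicate 2 of either line was. Without control replicate 2, 1 was called higher in K178R against control.

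Other p53 targets, 35 tested of 39 listed (SPATA18, EDA2R, GLS2 and ABCA12 fell below the filter), mostly moved as the 10 genes apart from PLK2 did. This list was drawn up with earlier results of these data known, so it is no independent evidence. TRIM22 passed the filter only through the wild type libraries (0.625 and 0.668 FPKM), so its calls below depend on that line being high. It stood at 0.153 and 0.144 FPKM in K178R and 0.0979 and 0.0930 in control. Against wild type, K178R had 32 called lower and 1 higher (median log2 -0.54, against -0.08 over all genes). Of all tested genes 34.5% were called lower and 10.4% higher. The largest falls were those of the apoptosis gene BBC3 (3.78 ± 0.143 FPKM in K178R and 10.6 ± 0.0522 in wild type, log2 -1.28), the serpin SERPINB5 (log2 -1.21), TP53I3 (log2 -1.14), the ribosomal protein paralog RPS27L (log2 -1.04) and the mitochondrial reductase FDXR (log2 -1.03). KITLG was the gene called higher (log2 0.09), and that call was lost when either K178R library was left out or limma was run without trend, while 2 genes were higher under median-of-ratios scaling. Wild type against control had 28 higher and 1 lower (median log2 0.36, against 0.09). There 37.6% of all tested genes were called higher and 12.2% lower. Rises were led by the death receptor FAS (log2 1.05), TP53I3 (log2 1.04), the ceramidase ACER2 (log2 0.82), BBC3 (log2 0.79) and CYFIP2 (log2 0.78). The 1 lower gene was the phosphatase PTP4A1 (91.9 ± 2.58 FPKM in wild type and 126 ± 0.211 in control, log2 -0.45), and a second was lower after median-of-ratios or upper-quartile scaling, 2 in all.

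K178R against control had 20 of these 35 called lower and 1 higher (median log2 -0.16, against 0.0025 over all genes). Of all tested genes 11.1% were called lower and 11.7% higher. PTP4A1 (log2 -0.82), BBC3 (log2 -0.49), SERPINB5 (log2 -0.46) and DDB2, a sensor of ultraviolet damage (log2 -0.41), fell most, and FAS was the gene that rose (log2 0.52). The 20 became 13 with no filter and 10 with the control libraries averaged. Leaving out 1 library gave 13 (control replicate 1), 10 (control replicate 2) and 11 (K178R replicate 1). PTP4A1 shared the pattern of PLK2, highest in control and lowest in K178R.

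**Figure D4:**
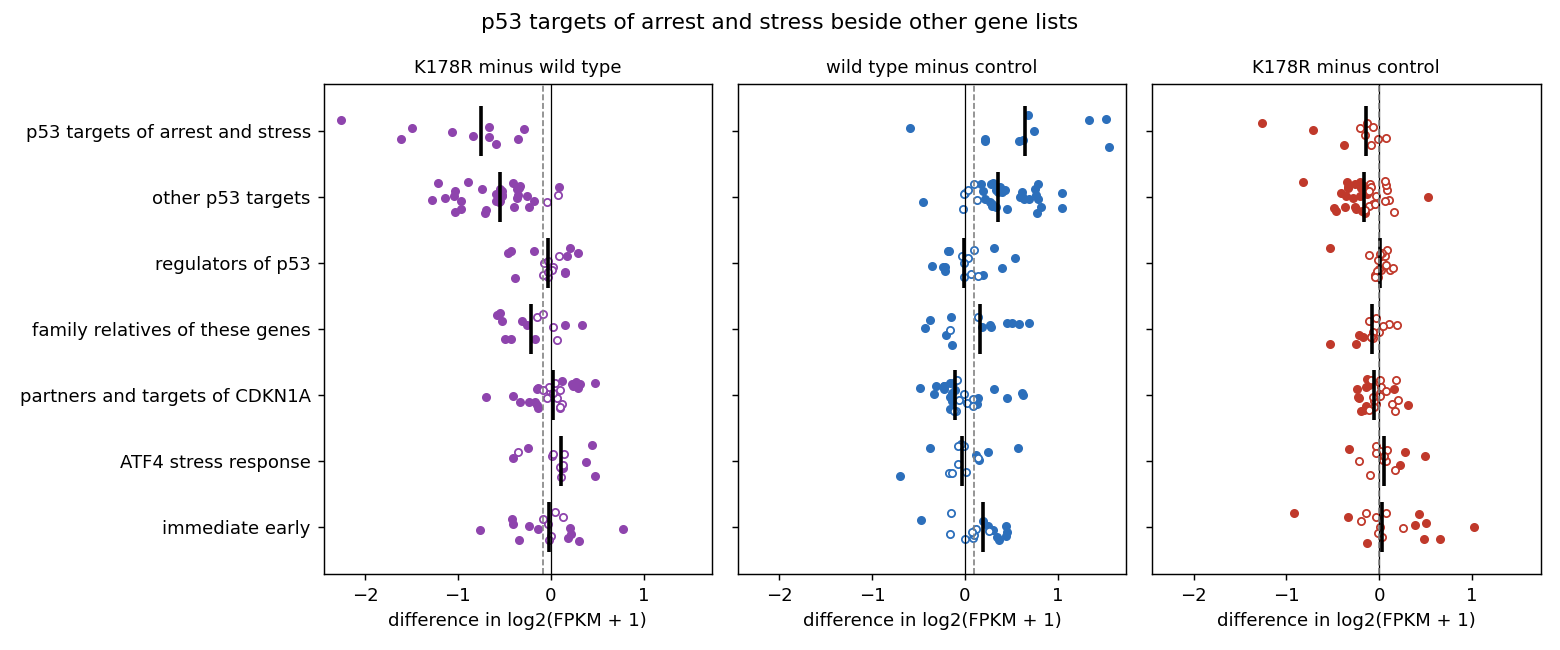
Differences in log2(FPKM + 1) of tested genes in 7 lists (rows) for 3 comparisons (panels). Filled points were called and open points were not, black bars are list medians and the dashed line is the median of all 11445 tested genes. The 10 genes and the other p53 targets have medians of -0.75 and -0.54 in K178R minus wild type, and the other lists lie closer to the dashed line.

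Relatives in the same gene families were called in both directions. Of 14 tested, 8 were called lower and 2 higher in K178R against wild type (median log2 -0.21). The shares of all genes there were 34.5% lower and 10.4% higher, 44.9% in either direction. SESN3, among the 8, would not have passed the filter without the wild type libraries (0.673 and 0.630 FPKM). Its call therefore depends on that line being high. It stood at 0.435 and 0.342 FPKM in K178R and 0.537 and 0.465 in control. In wild type against control 7 were higher and 5 lower (median log2 0.16). Shares of all genes were 37.6% higher and 12.2% lower here, 49.9% in either direction. The cyclin G gene CCNG2 (1.23 ± 0.0319 FPKM in K178R, 2.33 ± 0.0742 in wild type and 1.34 ± 0.0233 in control), TP53INP2 (log2 -0.55 for K178R against wild type) and the BTG relative TOB1 (log2 -0.52) had the wild type line highest, as their relatives CCNG1, TP53INP1 and BTG2 did. CDKN1C stood at 1.21 ± 0.415 FPKM in K178R, 2.08 ± 0.205 in wild type and 0.915 ± 0.0584 in control. It was also highest in wild type and had the largest change of the list in wild type against control (log2 0.69). The mitotic kinase PLK1 stood at 83.2 ± 1.67 FPKM in K178R, 88.1 ± 2.36 in wild type and 96.8 ± 0.859 in control. It was lower in both TEAD4 lines than in control (log2 -0.22 in K178R and -0.13 in wild type). The centriole kinase PLK4 stood at 12.5 ± 0.294 FPKM in K178R, 9.73 ± 0.385 in wild type and 13.4 ± 0.440 in control. It was higher in K178R cells than in wild type cells (log2 0.34) and lower in wild type than in control (log2 -0.43). GADD45B stood at 4.64 ± 0.349 FPKM in K178R, 5.27 ± 0.324 in wild type and 7.13 ± 0.193 in control, and was lower in both TEAD4 lines than in control (log2 -0.53 in K178R and -0.38 in wild type). The 2 higher in K178R against wild type, PLK4 and CDKN1B, became 1 without either wild type library or without K178R replicate 2. Against control, K178R had 4 of the 14 lower and 0 higher, where 11.1% of all genes were called lower and 11.7% higher. The 4 became 2 without control replicate 2, without K178R replicate 1 or with averaged controls, and 1 was higher without K178R replicate 1.

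Partners and targets of CDKN1A, the kinases, cyclins, pocket proteins and E2F genes it acts on, were called in both directions. Of 27 tested, 9 were called lower and 7 higher in K178R against wild type (median log2 0.02). Of all tested genes 34.5% were called lower and 10.4% higher there. In wild type against control 13 were lower and 6 higher (median log2 -0.10, against 0.09 over all genes). There 12.2% of all genes were called lower and 37.6% higher. The second counts were 17 and 4 under median-of-ratios scaling and 16 and 4 under upper-quartile scaling. The first counts turned to 3 and 14 under median-of-ratios scaling and to 5 and 11 under upper-quartile scaling. The 9 became 5 without wild type replicate 1 and 4 without K178R replicate 1. RBL2, the pocket protein p130, was highest in wild type, as the 10 genes were apart from PLK2. It stood at 2.56 ± 0.176 FPKM in K178R, 4.76 ± 0.0770 in wild type and 2.73 ± 0.00367 in control. The phosphatase CDC25A, which opposes arrest, was higher in K178R cells than in wild type cells (log2 0.48) and lower in wild type than in control (log2 -0.32), and cyclin E2 (CCNE2) was lower in wild type than in control (log2 -0.49). K178R against control had 9 lower and 2 higher (median log2 -0.06), where 11.1% of all genes were called lower and 11.7% higher. The 9 became 4 without control replicate 1 or with averaged controls and 5 without K178R replicate 1, and the 2 became 1 without control replicate 1, without K178R replicate 2, with no filter, without trend or with averaged controls.

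SESN2, GDF15 and GADD45A are also known targets of the stress factor ATF4, so its response genes were counted. For all tested genes, 10.4% were called higher and 34.5% lower in K178R against wild type (median log2 -0.08). The shares were 37.6% and 12.2% in wild type against control (median log2 0.09), and 11.7% and 11.1% in K178R against control. Of the 14 ATF4 response genes tested, 4 were called higher and 2 lower in K178R against wild type (median log2 0.11). In wild type against control 4 were higher and 2 lower (median log2 -0.03). After median-of-ratios scaling these were 10 and 1, and 2 and 8. After upper-quartile scaling 10 were higher in K178R against wild type, and 2 higher and 6 lower in wild type against control. The 4 higher in wild type also became 2 with no filter, without trend, under the replicate block, with averaged controls, and when a control library or wild type replicate 2 was left out, and the 2 lower became 1 with at least 1 FPKM asked in all libraries. The cystine transporter SLC7A11 (log2 0.47) and the glutathione-degrading enzyme CHAC1 (log2 0.45) were higher in K178R cells than in wild type cells, and ATF5 was lower in wild type than in control (log2 -0.70). ATF3, which p53 and ATF4 both induce, was lower in K178R cells than in wild type cells (log2 -0.40) and higher in wild type than in control (log2 0.58). K178R against control had 3 higher and 1 lower (median log2 0.05), and the 1 became 2 without K178R replicate 2.

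Immediate early genes were counted because PLK2, PLK3 and BTG2 also answer to growth factors. Of 17 tested, 6 were lower and 5 higher in K178R against wild type (median log2 -0.02). In wild type against control 8 were higher and 1 lower (median log2 0.19). K178R against control had 6 higher and 3 lower (median log2 0.03). The shares of all tested genes were 34.5% lower and 10.4% higher in the first comparison. They were 37.6% higher and 12.2% lower in the second, and 11.7% higher and 11.1% lower in the third. The 5 became 3 with only the groups compared, under the replicate block, with averaged controls, and without either control library or replicate 2 of either TEAD4 line. The 1 became 4 under median-of-ratios scaling, and 2 under upper-quartile scaling, without control replicate 1 or with averaged controls. EGR1 was highest in K178R (19.8 ± 0.358 FPKM, against 11.2 ± 0.798 in wild type and 9.28 ± 0.572 in control), and KLF4, a differentiation factor, lowest there (2.47 ± 0.116 FPKM, against 4.90 ± 0.412 in wild type and 5.58 ± 0.693 in control).

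The tested genes nearest to CDKN1A over the 6 libraries, by Euclidean distance of centred log2(FPKM + 1), were GDF15 (distance 0.744), TP53INP1 (0.803), TNFRSF10C (0.971), BIRC3 (1.001) and BBC3 (1.03). TNFRSF10C, a decoy receptor for the death ligand TRAIL, averaged 1.21 ± 0.0806 FPKM in K178R, 4.60 ± 0.454 in wild type and 2.09 ± 0.290 in control. BIRC3, an inhibitor of apoptosis, averaged 0.157 ± 0.0247 FPKM in K178R, 1.79 ± 0.0202 in wild type and 0.207 ± 0.00893 in control. It passed the filter only through the wild type libraries, so a high wild type line was a condition of its being tested. Those nearest to PLK2 were the ETS factor ETV1 (0.136), the integrin ITGB4 (0.227), LGALS7B (0.304), CYP24A1 (0.316) and the homeobox gene MSX2 (0.321). LGALS7B has a near-identical copy, LGALS7, and its level is uncertain. It averaged 0 FPKM in K178R, 0.355 ± 0.162 in wild type and 1.04 ± 0.0232 in control. Only the control libraries brought it through the filter, so a high control line was a condition of its being tested. ETV1 averaged 1.29 ± 0.0212 FPKM in K178R, 2.68 ± 0.0169 in wild type and 4.17 ± 0.126 in control, which is the descending order of PLK2. The distances rest on 6 libraries in 3 lines and are a description.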

How the data were processed

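RNA of 3 stable HCT116 lines was sequenced from total RNA with a TruSeq kit, per the labels' protocols. The authors deposited 1 table of FPKM values per library with 20030 gene rows. The aligner Bowtie 0.12.2 and the build hg18 are named in the submitters' processing notes. For the FPKM program, gene annotation and strand setting, nothing is given in the sources used here. The 4 rows with a repeated identifier were left out. Groups and replicate numbers follow the titles. limma 3.58.1 (R 4.3.3) with trend was fitted to log2(FPKM + 1) of all 6 libraries, with 3 two-sided contrasts and no block. Genes needed at least 0.5 FPKM in at least 2 libraries. Relative depth was read from the most frequent FPKM ratio to control replicate 1 among low genes (above 0 and below 0.1 FPKM). The median absolute log2 ratio of replicates over 3641 genes of 10 to 100 FPKM was 0.0417 in K178R, 0.0442 in wild type and 0.0412 in control. The fit was tested on simulated data. The genes, the lists and the tests were chosen with earlier results of these data known. Named genes were all 10, TEAD4, MDM2, MDM4, PPM1D, and the 5 nearest to CDKN1A and to PLK2. Others came from the called genes of largest change per list (up to 5 or 3). Of those largest changes, CHEK2, BTG1, TOB2, LIN37, CDK6, TFDP1, IER3, FOSL1, MYC and NR4A1 are not described. GADD45B and PLK1 met this rule in K178R against control but not in wild type against control, where they are also described. For that comparison they were chosen after their values were seen, as were CDKN1B, KITLG and other genes named outside this rule in a comparison. A planned gene is not reported here and is in no list count. Sequences are from RefSeq (GRCh38.p14), and site annotation is from GENCODE 29.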

Additional observations from a re-analysis of the deposited data

Results flagged for a closer look

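The K178R line and the wild type TEAD4 line, each set against the shared control line, were compared by the test of K178R against wild type. Their differences from control were unlike for these genes (limma adjusted p below 0.05 over 11445 genes). The log2 difference was -2.26 for CDKN1A, -1.61 for GDF15, -1.49 for TP53INP1, -1.06 for BTG2, -0.83 for SESN1, -0.67 for PLK2, -0.66 for PLK3, -0.59 for CCNG1, -0.35 for SESN2 and -0.28 for GADD45A. CDKN1A and BTG2 were called lower in K178R and higher in wild type, each against control. PLK2 was called lower in both. Of the regulators, MDM2 differed by -0.46, PPM1D by -0.38 and MDM4 by 0.30. TEAD4 itself differed by -0.25, so the lines also differ in how much TEAD4 RNA they hold, and its part in the other differences was not tested. Groups of 2 libraries are too small to test for an outlying library.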

How the results depend on the processing

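The 10 genes were recomputed under 15 alternatives in each comparison. All 10 stayed lower in K178R than in wild type under each of them, and CDKN1A, BTG2 and PLK2 stayed the 3 called lower in K178R than in control. Of 450 values, 439 kept direction and call, 10 lost the call and 1 reversed. The calls of GADD45A and SESN2 in wild type against control that ended are in the report, and GADD45A in K178R against control, not called, ranged from -0.15 to 0.018 with 1 library left out (0.018 without K178R replicate 1). The count of all genes called in K178R against control, 2610, ranged from 1371 to 2495 with 1 library left out (at most 1532 where it was a K178R or control library) and was 1235 with the control libraries averaged. The cause of these lower counts was not tested. Reversals of other named genes concerned differences near 0. In K178R against wild type these were PLK1 (0.017) and CCND1 (0.085, called) under median-of-ratios scaling, CCND1 (0.055) under upper-quartile scaling, and PPP1R15A (-0.027 to 0.083 with 1 library left out). In wild type against control SLC7A11 was -0.078 under median-of-ratios scaling, -0.047 under upper-quartile scaling and -0.089 to 0.12 with 1 library left out. In K178R against control PPM1D was -0.040 to 0.076 and TP53INP2 -0.0049 to 0.086 with 1 library left out. No shared effect of replicate number was seen. Deviations of same-numbered libraries correlated at 0.02 (K178R and wild type), -0.03 (K178R and control) and 0.0031 (wild type and control). The labels do not say what a replicate number marks, and these correlations cannot show whether same-numbered libraries were prepared together. With the replicate block, 10 of the 10 genes were lower in K178R than in wild type and 9 higher in wild type than in control, and the calls over all genes were 4966, 5512 and 2364 in K178R against wild type, wild type against control and K178R against control, beside 5139, 5711 and 2610. The number of reads is unknown, and with 2 libraries a line small differences such as those of K178R against control are poorly resolved.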
